A study of Mus musculus with 72 samples.

Results

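The enzymes of serine synthesis and one-carbon metabolism were examined in RNA-seq of the suprachiasmatic nucleus (SCN), the central circadian clock of the hypothalamus. The 8 genes are Phgdh, Psat1, Psph, Shmt1, Shmt2, Mthfd2, Aldh1l1 and Aldh1l2, chosen by name as enzymes of these linked pathways, and each matched 1 of the 24883 rows of the tables. Male C57BL/6 mice, 8 weeks old, lived for 1 week in cycles of 12 h light and 12 h dark (LD) or in constant darkness (DD) and then for 2 weeks on a nitrogen-matched control diet (Ctrl) or a diet depleted of tryptophan (-Trp) under the same light schedule. This gave 4 groups (Ctrl LD, Ctrl DD, -Trp LD, -Trp DD), each sampled every 4 h from 0 to 20 h, in zeitgeber time (ZT) in LD and circadian time (CT) in DD, with 3 mice at each of the 6 times. There were 18 libraries per group and 72 in all. None of the groups carries a mutation or transgene. Each library is bulk tissue, so fewer cells of a type and less RNA per cell cannot be told apart.

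Serine is made from a glycolytic intermediate in 3 steps: PHGDH oxidises 3-phosphoglycerate, PSAT1 moves an amino group onto the product, and PSPH removes the phosphate. Serine hydroxymethyltransferases, SHMT1 in the cytosol and SHMT2 in mitochondria, then cleave serine to glycine and pass a one-carbon unit to tetrahydrofolate. MTHFD2 oxidises this folate in mitochondria, and ALDH1L1 in the cytosol and ALDH1L2 in mitochondria release the unit as carbon dioxide with the production of NADPH. In the adult brain serine synthesis is mainly a task of astrocytes, which supply it to neurons, and ALDH1L1 is widely used as an astrocyte marker. Several of these genes, among them Phgdh, Psat1, Psph, Shmt2 and Mthfd2, are known targets of ATF4, the transcription factor of the response to missing amino acids.

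The names of the deposited columns and the published table of oscillating genes disagree on which library is which. All 36 columns of the published table used here, all from Ctrl mice, equalled a deposited column of another name in each of the 124 to 1939 genes compared (relative tolerance 0.0001), while the deposited column with the matching name was equal in at most 2 genes. The values below use the published order, in which the 36 -Trp libraries are placed by continuing the shift seen in the Ctrl libraries, and the results with the columns as named are given at the end. In the published order Dbp, Nr1d1 and Arntl, which cycle with the clock, had JTK_CYCLE peaks at 10, 8 and 0 h in both LD groups. Per2, a further clock gene examined for this check, was called in neither LD group (exact JTK_CYCLE test, p = 0.143 in Ctrl LD). Dbp, Nr1d1, Arntl and Per2 were called in neither DD group, so they give no check of the order of the DD libraries. The sum of FPKM over all genes was 403066 to 524705 in LD and 317417 to 411944 in DD, and only 1 DD library, -Trp DD at CT4 replicate 2, was above 353587. Depth in reads is unknown, but steps in the low values place the depth of the libraries relative to each other at 0.722 to 1.197 in LD and 0.693 to 1.25 in DD. That library and Ctrl DD at CT12 replicate 1 stood apart from their groups also in the members, which is described with the diet comparison. SCN neuropeptides were present, with median Avp levels of 327 to 483 FPKM and median Vip levels of 14.3 to 21.7 FPKM in the 4 groups. The summed level of 9 SCN neuron markers ranged from 41.3 to 1032 FPKM over the libraries, and the part of this spread in the results below was not tested.

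The serine synthesis genes Phgdh and Psat1 had the highest levels of the 8. In FPKM, which is scaled to transcript length, the mean over the 72 libraries was 53.3 for Phgdh, 46.3 for Psat1 and 22.4 for Aldh1l1. It was 8.87 for Psph, 7.81 for Shmt2, 6.82 for Mthfd2, 1.49 for Aldh1l2 and 0.388 for Shmt1. The light differences of all genes followed transcript length, as described below, so levels of genes of unlike length compare only roughly. The first steps of serine synthesis were thus expressed at a higher level than its last step, and each cytosolic and mitochondrial pair was unequal in opposite ways, with Shmt2 above Shmt1 and Aldh1l1 above Aldh1l2. In Ctrl LD the ranges of Phgdh (44.0 to 78.6 FPKM) and Psat1 (40.8 to 64.0) overlapped, and so did those of Psph, Shmt2 and Mthfd2 with each other. Aldh1l1 (20.6 to 30.6 FPKM) overlapped neither Psat1 above it nor Psph below it. Psph (median 6.78 FPKM) and Shmt2 (7.05) changed places in Ctrl DD, by less than their spread. Shmt1 lies below the mean of 0.5 FPKM that was required for the tests of level, so 7 of the 8 genes entered them.

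**Figure D1:**
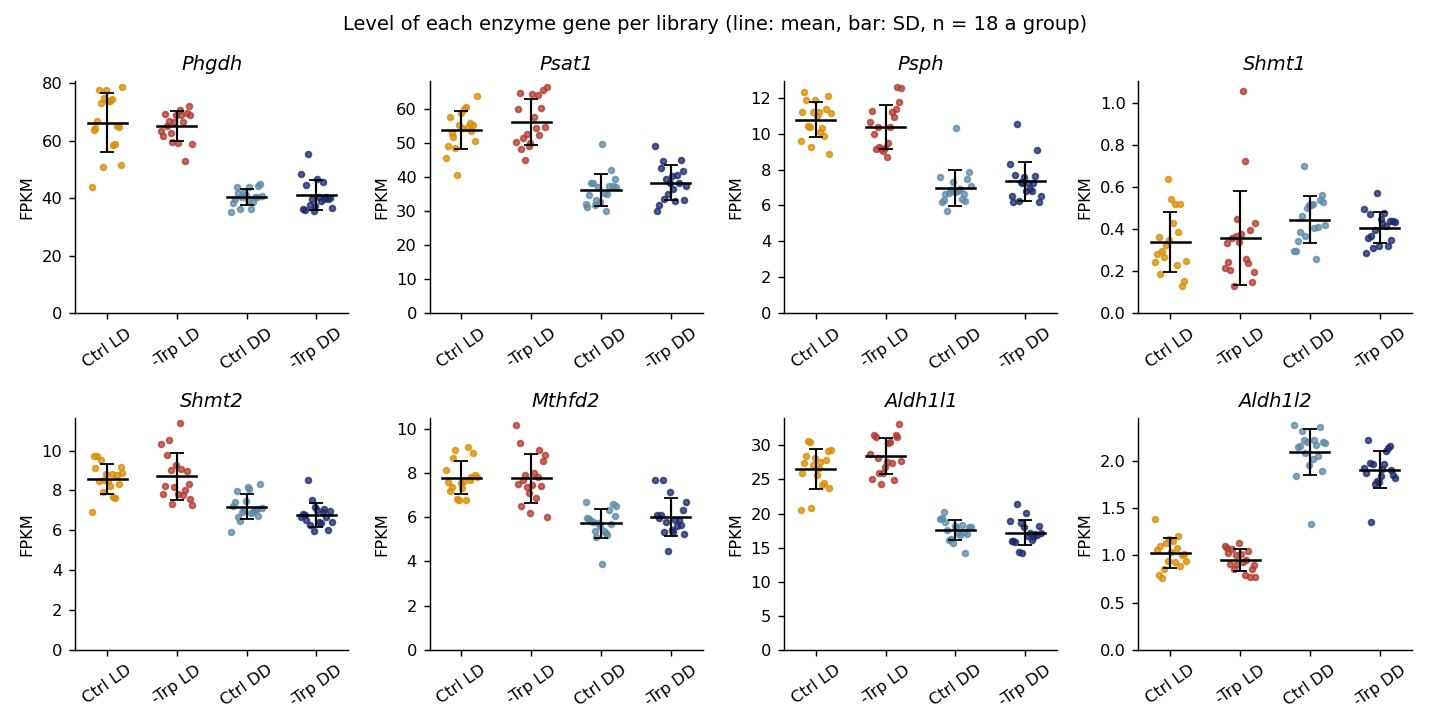
Level of each of the 8 enzyme genes in FPKM (vertical axes from 0) in every library of the 4 groups, with the mean and SD of 18 libraries. Phgdh, Psat1, Psph and Aldh1l1 are lower in both DD groups, Aldh1l2 is higher (means of 2.09 and 1.91 FPKM in DD against 1.03 and 0.951 in LD), and the diets lie close together under each light schedule.

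On GRCm38 (mm10), by GENCODE release M21, all 8 are protein-coding genes. Phgdh lies on chromosome 3 (98313170 to 98339990), Psat1 on 19 (15904678 to 15947337) and Psph on 5 (129765558 to 129787449). Shmt1 lies on chromosome 11 (60788104 to 60811718) and Shmt2 on 10 (127517123 to 127522444). Mthfd2 (83305691 to 83325908) and Aldh1l1 (90486427 to 90600203) are both on chromosome 6, and Aldh1l2 is on 10 (83487450 to 83534140). Aldh1l1 is on the plus strand and the other 7 on the minus strand. The longest transcript is 1893 nt for Phgdh, 2085 nt for Mthfd2, 2289 nt for Shmt2 and 2617 to 2877 nt for Psat1, Shmt1 and Psph. It is 4175 nt for Aldh1l1 and 6027 nt for Aldh1l2, which is longer than in 85.7% of the genes tested.

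Promoters are shown for Psat1, Shmt1 and Mthfd2, 3 of the 4 members with a time-of-day call below, since the clock acts through short elements near gene starts. The stretches come from the RefSeq promoter table (GRCm38.p6), without the bases that lie in annotated exons. They are chr19:15925060-15925309 for Psat1, chr11:60811266-60811466 for Shmt1 and chr6:83317607-83317854 for Mthfd2, all on the minus strand and written 5′ to 3′ towards the start. All 3 lie within the span of the GENCODE gene, which begins further upstream. No capitals are used, because no motif searched was found.
Psat1: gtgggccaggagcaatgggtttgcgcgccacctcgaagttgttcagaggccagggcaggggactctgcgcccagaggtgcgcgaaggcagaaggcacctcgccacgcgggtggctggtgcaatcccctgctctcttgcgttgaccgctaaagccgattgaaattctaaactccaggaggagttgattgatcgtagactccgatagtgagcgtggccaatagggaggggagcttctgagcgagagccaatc
Shmt1: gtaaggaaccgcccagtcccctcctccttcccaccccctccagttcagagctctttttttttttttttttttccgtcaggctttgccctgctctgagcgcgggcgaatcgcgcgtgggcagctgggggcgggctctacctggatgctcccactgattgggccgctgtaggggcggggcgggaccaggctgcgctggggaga
Mthfd2: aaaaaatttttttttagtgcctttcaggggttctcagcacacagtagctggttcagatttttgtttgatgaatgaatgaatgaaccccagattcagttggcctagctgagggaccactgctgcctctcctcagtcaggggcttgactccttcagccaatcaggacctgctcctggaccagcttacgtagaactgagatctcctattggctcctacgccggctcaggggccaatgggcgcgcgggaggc
Of the 8 members, 7 matched the table, with 8 promoters among 32851, and Aldh1l2 did not. For Psph the whole window is annotated exon, and it is not printed. The windows of 300 bases were searched on both strands for the C/EBP-ATF element TGATGNAAN, the E-box CACGTG and the D-box TTATGNAA, which occur in 3.95%, 7.15% and 3.39% of all promoters of this length. None of the 8 windows holds these letters, which says nothing on binding elsewhere.

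The diet comparison asks whether the enzymes respond to the lack of tryptophan. None of the 7 genes tested passed the threshold in either light schedule. For Phgdh, the entry enzyme of serine synthesis, the lowest, median and highest levels were 44.0, 66.1 and 78.6 FPKM in Ctrl LD and 52.8, 66.5 and 72.1 in -Trp LD. They were 35.2, 40.5 and 44.9 FPKM in Ctrl DD and 35.4, 39.9 and 55.3 in -Trp DD. The diets overlapped over most of their range under both schedules. For Psat1 the lowest, median and highest levels were 40.8, 54.6 and 64.0 FPKM in Ctrl LD against 45.1, 54.7 and 66.5 in -Trp LD, and 30.0, 36.3 and 49.8 in Ctrl DD against 30.0, 38.4 and 49.2 in -Trp DD. For Psph they were 8.87, 11.1 and 12.3 FPKM in Ctrl LD against 8.72, 10.4 and 12.6 in -Trp LD, and 5.70, 6.78 and 10.3 in Ctrl DD against 6.17, 7.24 and 10.6 in -Trp DD. Over all time points together neither enzyme separated the diets. At single time points Psat1 overlapped throughout, while Psph on -Trp was lower without overlap at 1 of 6 in LD and higher at 1 of 6 in DD. Phgdh on -Trp was lower without overlap at 2 of 6 time points in LD and 2 of 6 in DD. These counts of 3 against 3 libraries were not set against all genes.

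Differences between groups were computed with limma as differences of log2(FPKM + 0.5) after scaling of the libraries, with time point as a factor and Benjamini-Hochberg adjustment over all genes fitted. In LD, 0 of 7 members had an adjusted p under 0.05 and 1 had an unadjusted p under 0.05, against 1.13% of 14202 genes called (160, of which 87 were higher on -Trp, or 40 of 122 on FPKM as deposited). The 95% intervals of the 7 differences lay between -0.15 and 0.20. Aldh1l1 had the largest difference in LD, 0.12 ± 0.041 (SE, limma, adjusted p = 0.174), with medians of 27.3 FPKM on Ctrl and 27.9 on -Trp and a mean higher on -Trp at 5 of 6 time points. Its 3 libraries of one diet overlapped the 3 of the other at every time point.

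In DD, 0 of 7 members were called by limma and 1 had an unadjusted p under 0.05, against 14.2% of 14484 genes called. The 95% intervals of the 7 lay between -0.20 and 0.21. Aldh1l2, the mitochondrial formyl-tetrahydrofolate dehydrogenase, had the difference with the smallest p, -0.10 ± 0.049 (SE, limma, adjusted p = 0.154). Its lowest, median and highest levels were 1.33, 2.16 and 2.37 FPKM in Ctrl DD and 1.36, 1.90 and 2.22 in -Trp DD, and its mean was lower on -Trp at 5 of 6 time points. The lowest library of each group was 1 of the 2 that stand apart. Without Ctrl DD at CT12 replicate 1 the adjusted p of Aldh1l2 was 0.043, and with both of these libraries left out the difference was -0.09 ± 0.032 (limma, adjusted p = 0.0416), which made 1 of 7 members called against 18.5% of 14460 genes. The choice to leave them out was made after the data were seen.

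These 2 libraries moved several members at once. In -Trp DD at CT4 replicate 2, Phgdh (55.3 FPKM), Psph (10.6), Shmt2 (8.51) and Aldh1l1 (21.4) were above and Aldh1l2 (1.36) below all other 17 libraries of the group. Its sum of FPKM was the one in the range of the LD libraries. In Ctrl DD at CT12 replicate 1, Psat1 (49.8 FPKM) and Psph (10.3) were above and Mthfd2 (3.88) and Aldh1l2 (1.33) below the other 17. There the summed SCN neuron markers were 41.3 FPKM, against 151 to 542 in the other 17, and the summed oligodendrocyte markers 3304 FPKM, against 1101 to 2429. The summed astrocyte markers were below those of the other 17 in that library (1325 FPKM) and above them in -Trp DD at CT4 replicate 2 (2007 FPKM). The light comparisons called the same 7 members, in the same directions, with both libraries left out.

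The difference between the diet effects in DD and LD was tested as an interaction over all 72 libraries. It passed for 0 of 7 members and had an unadjusted p under 0.05 for 1, against 7.87% of 14425 genes called (1135, of which 346 had a positive term, or 379 of 907 on FPKM as deposited). The exception at the unadjusted level was Aldh1l1, with an interaction of -0.15 ± 0.060 (limma, adjusted p = 0.111).

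**Figure D2:**
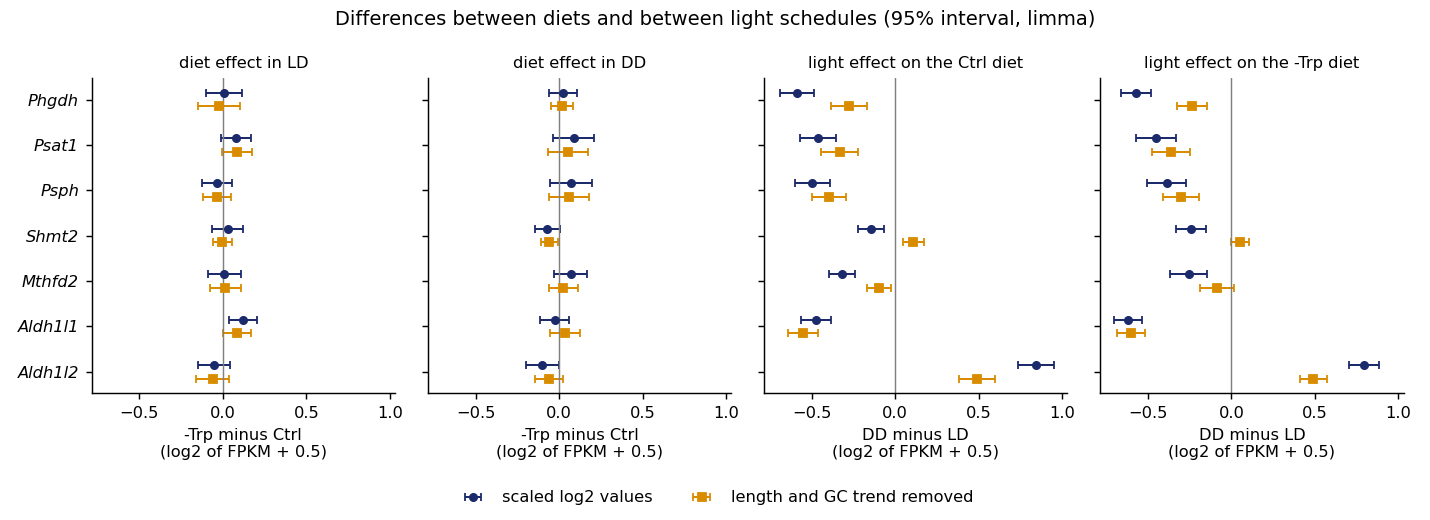
Differences of log2(FPKM + 0.5) between diets (-Trp minus Ctrl) and between light schedules (DD minus LD) for the 7 genes tested, with 95% intervals from limma, on scaled values (circles) and with the trend on transcript length and GC content removed (squares). The diet intervals of 6 genes in LD and 6 in DD span 0 on scaled values, while the light differences run from -0.62 for Aldh1l1 to 0.84 for Aldh1l2.

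Genes around the 8 enzymes were compared between the diets as well. Of 23 further genes of the folate and methionine cycle tested, 0 were called by limma in LD or DD, with an unadjusted p under 0.05 for 2 in LD and 5 in DD. Of 20 genes that use or move serine and glycine, 0 were called by limma in LD (2 had an unadjusted p under 0.05), while in DD 2 rose and 1 fell (9 had an unadjusted p under 0.05), a share near the 14.2% of all genes called. Sds, serine dehydratase, rose by 0.47 on the log2 scale (limma, adjusted p = 0.00189), from a median of 0.622 FPKM in Ctrl DD to 0.999 in -Trp DD. Dld, a subunit shared by the glycine cleavage system and other dehydrogenase complexes, rose by 0.11 (limma, adjusted p = 0.0223), but by 0.02 with a trend on transcript length and GC content removed (limma, adjusted p = 0.646). Slc6a9, the glycine transporter GLYT1, fell by 0.28 (limma, adjusted p = 0.00468), from a median of 27.4 FPKM to 22.2.

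Genes of the ATF4 response called for the diet were higher in LD and went both ways in DD. In LD, 2 of 20 tested rose on -Trp and 0 fell: Chac1, which degrades glutathione, by 0.22 (limma, adjusted p = 0.00911) and Aars, alanyl-tRNA synthetase, by 0.13 (limma, adjusted p = 0.0338). With the trend removed Aars was at 0.08 and not called (limma, adjusted p = 0.179). In LD 8 of the 20 had an unadjusted p under 0.05 (limma), against 1845 of all 14202 genes, and 1.13% of all genes were called. The median difference over this list in LD was 0.08, against 0.003 over all genes. In DD, 1 of 21 rose, Gpt2, a mitochondrial alanine aminotransferase (0.15, limma, adjusted p = 0.0488). Slc7a5 and Slc3a2, which together form the large neutral amino acid transporter that also carries tryptophan, fell in DD by 0.26 and 0.15 (limma, adjusted p = 0.00428 and 0.00841). In DD 5 of the 21 had an unadjusted p under 0.05 (limma), against 4595 of all 14484 genes, and 14.2% of all genes were called. The median in DD was 0.004, against 0.01 over all genes. The interaction of diet and light passed for Chac1, Slc7a5 and Aars, at -0.27, -0.23 and -0.15 (limma, adjusted p = 0.0106, 0.025 and 0.0408), and, of the folate and methionine list, for Ggh at 0.21 (limma, adjusted p = 0.0482). With the trend removed only Chac1 of these 4 passed (-0.26, limma, adjusted p = 0.0373), and the others had adjusted p = 0.15 to 0.995. The median over the 7 members was 0.01 in LD and 0.02 in DD. Some cell type markers were called for the diet in DD too, where 14.2% of all genes were called. Of 13 astrocyte markers 2 rose and 2 fell on -Trp, and 2 of 9 neuron, 3 of 8 oligodendrocyte, 4 of 6 oligodendrocyte precursor and 1 of 6 microglia markers fell, while 0 of the SCN neuron, endothelial and mural, and ependyma and tanycyte markers were called. Their part in the differences was not tested.

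The light comparison asks how the enzymes differ between the light-dark cycle and constant darkness. Under both diets 6 of the 7 genes tested were lower in DD and Aldh1l2 was higher. All 7 passed, as did most genes: on Ctrl 41.1% of 14426 genes were lower and 37.7% higher, and on -Trp 41.7% of 14403 were lower and 37.8% higher. The schedules also differ in the sum of FPKM, so an effect of the light schedule and a difference in how the libraries were made or measured cannot be told apart. On FPKM as deposited the median difference of all genes was -0.11 on both diets, against -0.02 after scaling, and every member kept its direction and call.

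Phgdh had the largest fall on the Ctrl diet, with a mean of 66.3 ± 10.3 FPKM (SD, n = 18) in LD and 40.5 ± 2.80 in DD, a ratio of 0.610. Levels, ratios of means and counts of overlap are on FPKM as deposited, while the limma differences are on scaled values. Unscaled, the limma difference of Phgdh on Ctrl was -0.69. All 3 DD libraries were below all 3 LD libraries at each of the 6 time points on both diets, and 16 of 18 Ctrl DD libraries were below every Ctrl LD library. The difference was -0.59 ± 0.050 on Ctrl (limma, adjusted p = 1.84e-12) and -0.57 ± 0.044 on -Trp (limma, adjusted p = 1.6e-13). The other genes of serine synthesis were lower as well. Psat1 differed by -0.46 ± 0.052 on Ctrl and -0.45 ± 0.059 on -Trp, and Psph by -0.50 ± 0.052 and -0.39 ± 0.057. Psat1 was lower without overlap at 6 of 6 time points on both diets and Psph at 5. Of all genes tested, 30.6% on Ctrl and 29.4% on -Trp showed no overlap at all 6 time points. These were all higher or all lower in DD, and both directions are counted. They are set beside 5 of the 7 members on Ctrl and 4 on -Trp.

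Aldh1l1 and Aldh1l2, the cytosolic and mitochondrial forms of 1 enzyme, differed in opposite directions. Aldh1l1 had lowest, median and highest levels of 20.6, 27.3 and 30.6 FPKM in Ctrl LD and 14.2, 17.8 and 20.2 in Ctrl DD, and of 24.3, 27.9 and 33.1 in -Trp LD and 14.2, 16.9 and 21.4 in -Trp DD. Its ranges in LD and DD did not overlap on either diet, and the difference was -0.48 ± 0.045 on Ctrl and -0.62 ± 0.041 on -Trp. Aldh1l2 had lowest, median and highest levels of 0.766, 1.03 and 1.39 FPKM in Ctrl LD and 1.33, 2.16 and 2.37 in Ctrl DD, and of 0.776, 0.937 and 1.13 in -Trp LD and 1.36, 1.90 and 2.22 in -Trp DD. All 3 DD libraries were above all 3 LD libraries at 6 of 6 time points on both diets. The means were 2.04 times higher in DD on Ctrl and 2.003 times on -Trp, and the differences were 0.84 ± 0.053 and 0.80 ± 0.044 (limma, adjusted p = 1.05e-15 and 8.31e-17).

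Mthfd2 and Shmt2, both mitochondrial, had the smallest light differences of the 7, and Aldh1l2, also mitochondrial, had the largest. Mthfd2 had means of 7.78 ± 0.749 FPKM in Ctrl LD and 5.72 ± 0.656 in Ctrl DD (SD, n = 18), and of 7.76 ± 1.103 and 6.01 ± 0.844 on -Trp. It was lower in DD by 0.32 ± 0.039 on Ctrl and 0.26 ± 0.055 on -Trp. Its libraries were separate at 6 of 6 time points on Ctrl but at 2 of 6 on -Trp. Shmt2 had means of 8.59 ± 0.752 and 7.18 ± 0.629 FPKM on Ctrl and 8.70 ± 1.18 and 6.78 ± 0.593 on -Trp, with differences of -0.14 ± 0.039 and -0.24 ± 0.044 (limma, adjusted p = 0.00117 and 6.44e-06). Shmt1 was tested only without the filter on low values, where it was higher in DD on Ctrl by 0.22 ± 0.062 (limma, adjusted p = 0.00205), while on -Trp the difference was 0.15 ± 0.068 (adjusted p = 0.0572). Its median levels were 0.311 and 0.443 FPKM on Ctrl and 0.337 and 0.422 on -Trp, with wide overlap.

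The light differences of all genes followed transcript length. Over 13711 genes on Ctrl and 13691 on -Trp, Spearman's rho between the difference and the length of the longest transcript was 0.573 and 0.478, and with GC content -0.249 and -0.362, as a description across genes, which are not independent. Transcripts of the length of Phgdh had a median difference of -0.38 on Ctrl and those of the length of Aldh1l2 one of 0.32. All genes were divided by transcript length into 10 bins of like size. Among genes of its own bin, 24.8% were lower than Phgdh on Ctrl and 22.9% on -Trp. Aldh1l1 lay further from genes of its length, with 6.34% and 4.79% lower and a bin median of 0.07 and 0.06. For Aldh1l2, 89.3% and 87.0% of the genes of its bin were lower. Shmt2 and Mthfd2 lay near the middle, with 41.2% to 62.6% of their bin lower.

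**Figure D3:**
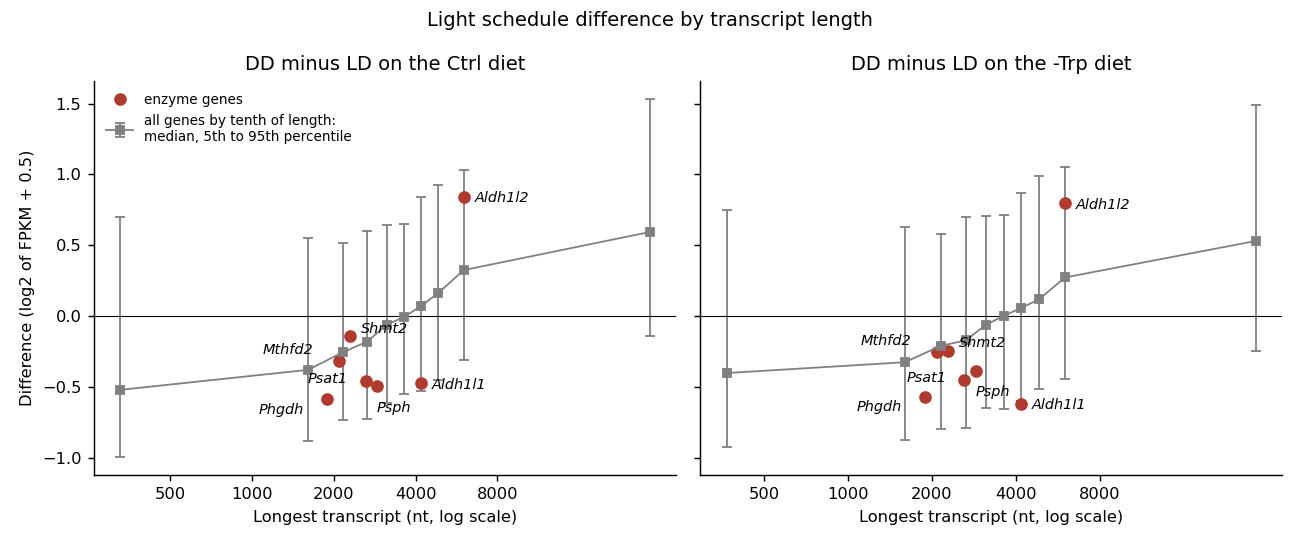
Difference of log2(FPKM + 0.5) between DD and LD against the length of the longest transcript (log scale) on each diet, with the median and the 5th to 95th percentile of all genes in each of 10 bins of length (squares) and the 7 enzyme genes (circles). The median climbs with length, Shmt2 and Mthfd2 lie near it, and Aldh1l1 (4175 nt) lies well below it at -0.48 and -0.62.

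With this trend on length and GC content removed from every library, an alternative added after the data were seen, 5 of the 7 members were lower and 2 higher in DD on Ctrl, against 41.8% and 32.5% of 13786 genes. On -Trp 4 were lower and 1 higher, against 44.0% and 34.1% of 13778 genes. Phgdh then differed by -0.28 on Ctrl and -0.24 on -Trp, less than before, and Psat1 (-0.33 and -0.36), Psph (-0.40 and -0.30) and Aldh1l1 (-0.55 and -0.60) stayed lower in DD. Aldh1l2 was higher by 0.49 on both diets. Mthfd2 differed by -0.10 on Ctrl (limma, adjusted p = 0.0146) and -0.09 on -Trp (limma, adjusted p = 0.123). Shmt2 turned direction, to 0.11 on Ctrl (limma, adjusted p = 0.00216) and 0.05 on -Trp (limma, adjusted p = 0.0658).

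Markers of cell types moved with the light schedule too, as did most genes. Of 13 astrocyte markers, which do not include Aldh1l1, 5 were lower and 4 higher in DD on Ctrl, and 6 lower and 3 higher on -Trp. With the trend on length and GC content removed, 11 were lower and 2 higher on Ctrl, and 9 lower and 2 higher on -Trp. Their summed level was 1812 to 2562 FPKM in Ctrl LD and 2024 to 2610 in -Trp LD, and 1325 to 1811 in Ctrl DD and 1527 to 2007 in -Trp DD. Of 9 neuron markers 8 were lower on Ctrl and 9 on -Trp, of 8 oligodendrocyte markers 6 and 7, and of 6 microglia markers 3 and 5, with 0 higher in these lists. The summed neuron markers were 1642 to 2312 FPKM in LD and 1026 to 1984 in DD, and the summed oligodendrocyte markers 1657 to 3367 in LD and 890 to 3304 in DD. Of 6 endothelial and mural markers 4 were higher and 1 lower on Ctrl, and 5 and 1 on -Trp. Of 9 SCN neuron markers 2 were higher and 5 lower on Ctrl, and 3 and 1 on -Trp, of 6 oligodendrocyte precursor markers 2 and 3, and 2 and 4, and of 5 ependyma and tanycyte markers 2 and 3, and 1 and 0. No marker found was at 0 in all libraries of a group, and 1 of 6 ependyma and tanycyte markers was not found. The part of these markers in the differences of the enzymes was not tested.

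The other pathway genes were called in both directions. On Ctrl, 8 of 23 genes of the folate and methionine cycle were higher in DD and 9 lower, and on -Trp 8 and 8. These counts lie near the shares of all genes, 37.7% higher and 41.1% lower on Ctrl and 37.8% and 41.7% on -Trp. Mtr, methionine synthase, was higher by 1.27 on Ctrl (limma, adjusted p = 1.44e-20). Of 20 serine and glycine genes 3 were higher and 11 lower on Ctrl, and 3 and 10 on -Trp. The ATF4 response list had 3 of 20 higher and 14 lower on Ctrl, and 4 and 14 on -Trp. The serine and glycine list and the ATF4 list thus had more genes lower than higher. Atf4 itself was lower by 0.73 on Ctrl and 0.79 on -Trp. The median of this list was -0.31 on Ctrl and -0.37 on -Trp and that of the 7 members -0.46 and -0.39, against -0.02 over all genes on both diets. With the trend removed these medians were -0.17 on both diets for the list and -0.28 and -0.24 for the members, against -0.04 and -0.05 over all genes. Mtr and Atf4 were chosen for mention after their values were seen.

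Rhythms were called with JTK_CYCLE (24 h, p under 0.05, the threshold of the study's methods) on FPKM as deposited. In Ctrl LD 1 of the 8 members was called, against 7.11% of 24883 genes, in -Trp LD 3 against 7.42%, in Ctrl DD 1 against 4.92% and in -Trp DD 0 against 1.42% (354 genes). Shares of the 24883 rows, here and with the columns as named, include rows at 0. Each library had 17931 to 18778 rows above 0, so the shares are lower than among expressed genes. The limma cosinor model was fitted to genes past the filter on low values, without Shmt1. In LD it had an unadjusted p under 0.05 for 2320 of 14174 genes on -Trp and 2036 of 14199 on Ctrl. These included 2 and 0 of 7 members. In DD it had 306 of 14453 on -Trp and 1184 of 14496 on Ctrl, with 0 and 1 of 7 members.

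Psph, the last enzyme of serine synthesis, had the clearest rhythm, in -Trp LD. Its 3 libraries were 10.6, 11.3 and 9.96 FPKM at ZT0, 9.14, 10.4 and 9.26 at ZT4, and 9.17, 9.01 and 9.22 at ZT8. They were 8.72, 9.46 and 10.4 at ZT12, 11.2, 10.9 and 11.4 at ZT16, and 12.6, 11.8 and 12.6 at ZT20. Every library at ZT20 was above every library at the other 5 time points. The exact JTK_CYCLE test gave p = 2.13e-05 with a peak at 20 h, which passed the Benjamini-Hochberg adjustment over all genes (adjusted p = 0.0133), and a limma cosinor model gave an amplitude of 0.21 on the log2 scale with a peak at 19.6 h (adjusted p = 0.00686). In Ctrl LD the means of Psph were 10.5 to 11.04 FPKM over the 6 time points, and the exact JTK_CYCLE test gave p = 1.0. The difference in rhythm between the diets in LD, tested by limma's F-test, had an unadjusted p of 0.000777 for Psph but an adjusted p of 1, with 0 of 7 members and 0.0% of 14202 genes called and 452 genes at an unadjusted p under 0.05. Psph is therefore not shown to differ in rhythm between the diets. In DD 0 of 7 members were called in this test and 0 had an unadjusted p under 0.05, against 0.0345% of 14484 genes called and 989 at an unadjusted p under 0.05.

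Psat1, the enzyme before Psph, was also called in -Trp LD, at p = 0.0147 (exact JTK_CYCLE test) with a peak at 20 h. Its means were 58.4 FPKM at ZT0, 48.4 at ZT4, 50.7 at ZT8, 58.9 at ZT12, 59.0 at ZT16 and 62.4 at ZT20. The low values lay at ZT4 and ZT8, and the libraries of ZT20 (65.8, 54.8 and 66.5 FPKM) overlapped those of ZT12 and ZT16. The call did not pass the adjustment (JTK_CYCLE, adjusted p = 0.35). In Ctrl LD Psat1 had p = 0.319 by the exact JTK_CYCLE test.

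**Figure D4:**
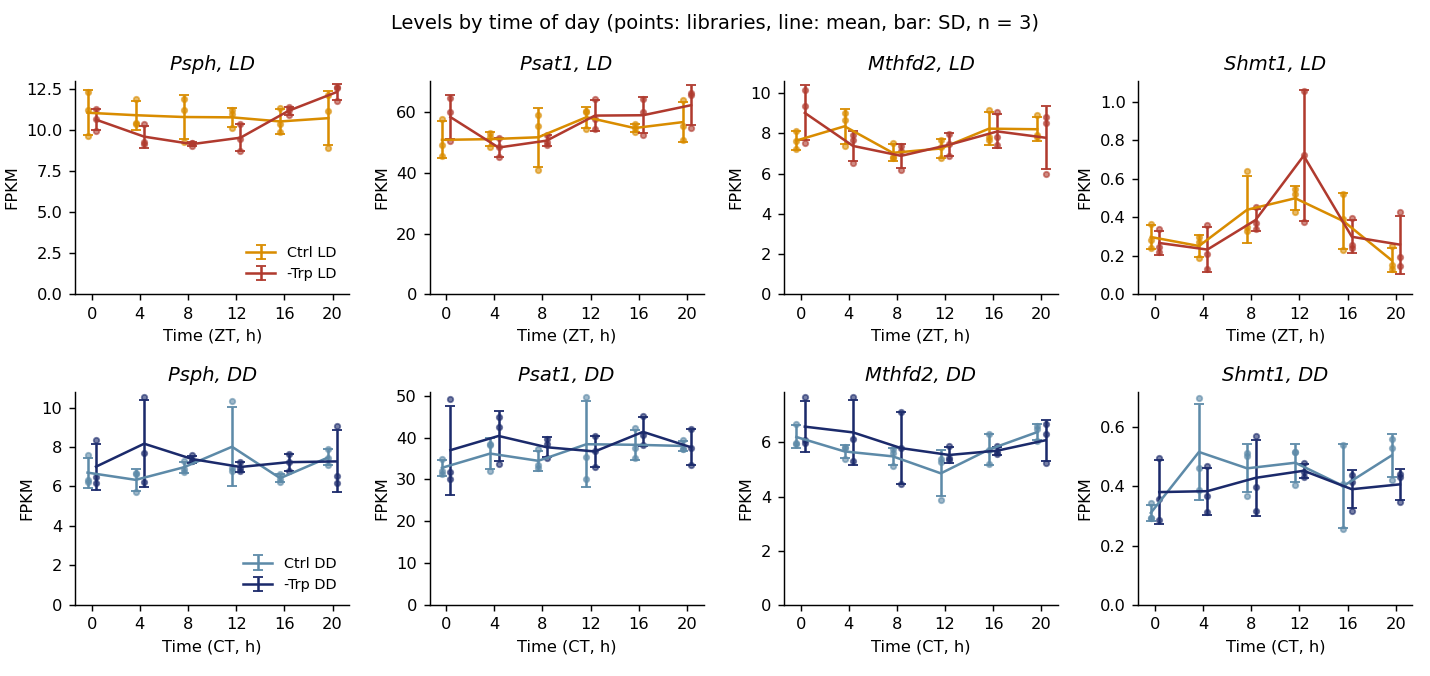
Level in FPKM (vertical axes from 0) by time of day of the 4 members with a call, in LD (top) and DD (bottom) on each diet, with every library, the mean and the SD of 3 mice. Psph in -Trp LD is lowest at ZT8 (mean 9.13 FPKM) and highest at ZT20 (12.3), while the Ctrl LD line stays at 10.5 to 11.04.

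Shmt1, the cytosolic hydroxymethyltransferase, was called in both LD groups with a peak at 12 h (exact JTK_CYCLE test, p = 0.0340 on Ctrl and 0.0441 on -Trp). Its libraries at ZT12 were 0.546, 0.429 and 0.520 FPKM on Ctrl and 0.377, 1.06 and 0.724 on -Trp, and at ZT20 0.128, 0.153 and 0.248 on Ctrl and 0.148, 0.195 and 0.429 on -Trp. On Ctrl the 2 times were separate and on -Trp they overlapped. At this low level the calls were not firm: leaving out each of the 18 libraries kept the call in 10 cases on Ctrl and 4 on -Trp, neither passed the adjustment, and on scaled FPKM the -Trp call was lost (exact p = 0.0724).

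Mthfd2, the mitochondrial methylene-tetrahydrofolate dehydrogenase, was called in Ctrl DD (exact JTK_CYCLE test, p = 0.00139, peak at 0 h). Its libraries were 6.69, 5.98 and 5.92 FPKM at CT0, 5.82, 5.79 and 5.40 at CT4, and 5.12, 5.74 and 5.59 at CT8. They were 3.88, 5.40 and 5.29 at CT12, 5.19, 6.32 and 5.70 at CT16, and 6.60, 6.05 and 6.49 at CT20. The values were lowest at CT12, where 3.88 FPKM is from the library that stands apart, and highest at CT20 and CT0. The call held with each of the 18 libraries left out in turn, but it did not pass the adjustment (adjusted p = 0.369). In the other groups the estimated peak of Mthfd2 was 22, 22 and 2 h, with no call. Phgdh, Shmt2, Aldh1l1 and Aldh1l2 were called in none of the 4 groups.

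Members were also compared by how they varied together over the 72 libraries, after the mean of each light schedule was subtracted. These are descriptions, since the libraries share diet, time point and composition. Psat1 and Psph had the highest correlation among the members (r = 0.586), followed by Phgdh with Aldh1l1 (0.546) and Phgdh with Psat1 (0.468). Aldh1l2 had a negative r with Aldh1l1 (-0.466), Phgdh (-0.451) and Psph (-0.421). With the summed astrocyte markers r was 0.638 for Phgdh and 0.630 for Aldh1l1 but 0.308 for Psat1 and 0.054 for Psph, while Aldh1l1 had r = 0.498 with the summed neuron markers. With the summed oligodendrocyte markers r was 0.541 for Psat1 and 0.436 for Phgdh.

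The 3 genes most like each member in their values were different for every member. Phgdh was closest to Rab5c (r = 0.714), Clu (0.687), a secreted chaperone abundant in astrocytes, and Hadh (0.673). Psat1 was closest to Dbndd2 (0.833), Anln (0.767) and Carhsp1 (0.754), and Psph to Dynll1 (0.724), Neu2 (0.718) and Ftsj1 (0.695). Shmt1 was closest to Dbp and Ciart (both 0.561), which are outputs of the clock, and Sdcbp2 (0.546), while its mean level is 0.388 FPKM. Shmt2 was closest to Gipc1 (0.772), Dtx3 (0.758) and Bin1 (0.736), and Mthfd2 to 1700007K13Rik (0.671), Mettl16 (0.643) and Plcd4 (0.639). Aldh1l1 was closest to Eef2 (0.685), Pdk2 (0.677) and Atp5b (0.668), and Aldh1l2 to Pcdh15 (0.730), Dicer1 (0.719) and Usp24 (0.712).

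With the columns as named, most of these results change. In the diet comparison 6 of 7 members passed in LD against 65.5% of 14461 genes, and 7 of 7 in DD against 70.8% of 14370. Phgdh then differed by -0.36 in LD and 0.42 in DD, and Aldh1l2 by 0.53 and -0.48. In the light comparison 0 of 7 members passed on Ctrl (2 had an unadjusted p under 0.05 in limma), against 5.89% of 14414 genes, and 7 of 7 on -Trp against 78.0% of 14432, with every sign opposite to that in the published order. The interaction passed for 7 of 7 against 77.5% of 14425. JTK_CYCLE called 7 of 8 members in Ctrl LD against 37.8% of 24883 genes, 1 in -Trp LD against 2.48%, 6 in Ctrl DD against 27.6% and 2 in -Trp DD against 6.68%. Only the JTK_CYCLE call of Mthfd2 in Ctrl DD was made under both orders, with a peak at 0 h in the published order and at 18 h as named. Under the named order Dbp, Nr1d1 and Arntl peaked at 4, 2 and 16 h in Ctrl LD and were not called in -Trp LD, while in -Trp DD Dbp and Nr1d1 were called with peaks at 2 and 0 h. Per2 was called in Ctrl LD alone under the named order (exact JTK_CYCLE test, p = 0.00203, peak at 20 h). Which order matches the mice was not tested.

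**Figure D5:**
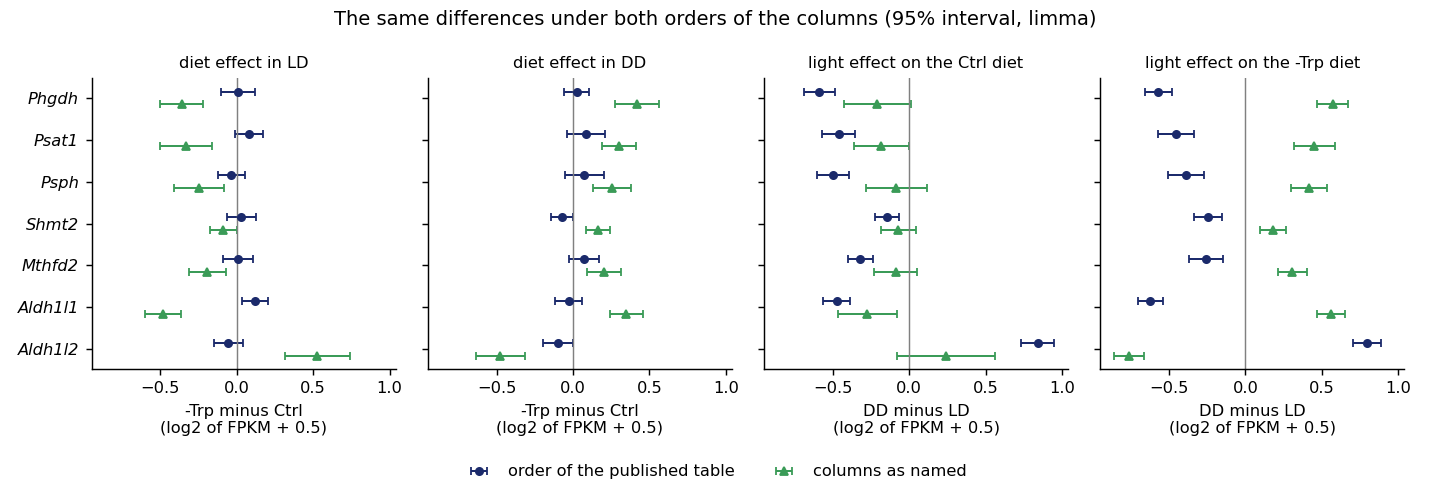
The differences of the 7 genes between diets and between light schedules, as log2(FPKM + 0.5) with 95% intervals from limma, under the published order (circles) and with the columns as named (triangles). For the light comparison on -Trp every gene lies on the opposite side of 0, with Aldh1l2 at 0.80 and -0.76.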

How the data were processed

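TruSeq stranded mRNA libraries of the SCN were sequenced from 72 mice, with 3 separate mice per diet, light schedule and time point, so p-values measure the spread between mice. The authors trimmed reads with Trimmomatic, aligned them to mm10 with TopHat and deposited 4 tables of FPKM values from Cufflinks, which are scaled to transcript length and library total. Versions are not given in the sources used here, and the number of reads per library is unknown.

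FPKM were divided by median-of-ratios factors (0.909 to 1.08), and log2(FPKM + 0.5) was fitted in limma 3.58.1 (R 4.3.3) with time point as a factor, leaving out genes whose mean was below 0.5 FPKM. Benjamini-Hochberg adjustment ran over all genes fitted. Fold changes on this scale understate those of low genes. Levels, ratios of means, marker sums and counts of overlap are on FPKM as deposited. Rhythms were tested with JTK_CYCLE (exact null distribution, 24 h period, Bonferroni over 6 phases), recoded in Python 3.11.15, on FPKM as deposited, and with a limma cosinor model. Scripts were tested on simulated data. Alternatives were other scalings, pseudocounts (0.1 and 1), filters, a replicate block, each library left out, the columns as named, removal of a trend on length and GC content (splines with 4 degrees of freedom each) and both libraries that stand apart left out, the last 2 added after the data were seen.

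The 8 members, the lists of pathway genes and cell type markers and the tests were chosen with earlier results of these data known. Named are all members, the genes of the folate and methionine, serine and glycine, and ATF4 lists past the threshold in a diet comparison (at most 6 per list and comparison), the 3 genes most correlated with each member, and Per2, Dbp, Nr1d1 and Arntl. Per2 was not called in any group in the published order. The marker lists are of astrocytes, neurons, SCN neurons, oligodendrocytes and their precursors, microglia, endothelium and mural cells, and ependyma and tanycytes. The published table of oscillating genes served only to place the columns.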

Additional observations from a re-analysis of the deposited data

How the results depend on the processing

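The order of the columns decided most results. With the columns as named, the members called were 6 and 7 for the diet in LD and DD, 0 for the light schedule on Ctrl, 7 for the interaction, 6 and 2 for the difference in rhythm in LD and DD, and, for rhythms, 7 and 6 on Ctrl (LD, then DD) and 1 and 2 on -Trp. The genes called were 9479, 10171, 849, 11183, 7514, 5000, 9416, 6874, 617 and 1661 in the same order. The diet difference in LD was -0.48 for Aldh1l1, 0.53 for Aldh1l2, -0.19 for Mthfd2, -0.36 for Phgdh and -0.33 for Psat1, and in DD 0.35 for Aldh1l1 and 0.16 for Shmt2, all opposite in sign to the published order. So were the interaction of Aldh1l1 (0.83) and Shmt2 (0.25) and the light difference on -Trp, at 0.56 for Aldh1l1, -0.76 for Aldh1l2, 0.31 for Mthfd2, 0.57 for Phgdh, 0.45 for Psat1, 0.42 for Psph and 0.18 for Shmt2.

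With the trend on length and GC content removed, the diet in DD called 1178 genes, the interaction 346 and the difference in rhythm in DD 9, and the light difference of Shmt2 turned to 0.11 on Ctrl and 0.053 on -Trp. With both libraries that stand apart left out, 1 member was called for the diet in DD (Aldh1l2), and 9 genes for the difference in rhythm in DD. A single fit of all 72 libraries called 11 genes there. With JTK_CYCLE p-values adjusted, 0 members were called on Ctrl in either light schedule and 1 in -Trp LD, with 93 genes in that group, 21 in Ctrl LD and 0 under DD on either diet. Shmt1 was the member lost in Ctrl LD, where 0 members also remained with a mean of at least 1 FPKM or by the limma cosinor model, which leaves out genes of so low a level. The cause of the other changes was not tested.

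Leaving out each library in turn gave 0 to 1 members for the diet in DD (1 without Ctrl DD at CT12 replicate 1), 0 to 2 in Ctrl LD and 2 to 4 in -Trp LD. The genes called were 115 to 278 for the diet in LD (278 without Ctrl LD at ZT20 replicate 2), 1239 to 2884 for the diet in DD (1239 without -Trp DD at CT12 replicate 3, and 1348 and 1362 without -Trp DD at CT0 replicate 1 or CT20 replicate 1), 835 to 1746 for the interaction (1746 without Ctrl DD at CT0 replicate 1) and 0 to 1 and 2 to 8 for the difference in rhythm in LD and DD. Rhythms were called for 1314 to 2722 genes in Ctrl LD (2722 without ZT20 replicate 2) and 258 to 677 in -Trp DD (677 without CT0 replicate 1, or 602 without CT4 replicate 2).

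Whether the replicate numbers pair the mice was not tested, as no pairs of unlike number were compared. The deviations of same-numbered libraries of the 2 diets correlated at -0.35 to 0.272 in LD and -0.0703 to 0.445 in DD. They were above 0.1 in 4 of 18 pairs in LD and in 12 of 18 in DD. With the number as a block, limma called 167 and 1929 genes for the diet in LD and DD, 11348 and 11430 for the light schedule, 1153 for the interaction and 0 and 5 for the difference in rhythm, with 0, 0, 7, 7, 0, 0 and 0 members. For rhythms, the cosinor model with the block had 0, 2, 1 and 0 members at an unadjusted p under 0.05 (Ctrl LD, -Trp LD, Ctrl DD, -Trp DD). These rhythm counts are not adjusted, unlike the limma counts before them. Other pseudocounts, filters and FPKM as deposited kept the call of every member difference and rhythm tested under them. They also kept the sign of each difference, except that on FPKM as deposited the diet differences in LD of Mthfd2 and Phgdh, which passed in neither, were -0.01 and -0.01 in place of 0.01 and 0.01. Depth in reads is unknown, which limits what can be said of genes near the level of Shmt1.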
